A study of Homo sapiens with 18 samples.

Results

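The genes described here are IGF1 and 6 other genes of insulin-like growth factor (IGF) signalling: the receptors IGF1R and INSR, the docking proteins IRS1 and IRS2, and the binding proteins IGFBP2 and IGFBP4. They are 7 of the 27781 gene symbols in the deposited count table and were taken by symbol. They were chosen with earlier results of the same comparison known, IGF1 for its lower level after knockdown, so their values in that comparison are given as a description and without p-values. RNA-seq was made from K562, a human leukemia cell line that carries the BCR-ABL1 fusion kinase. Knockdown cells received antisense gapmers directed at the junction that closes circPCMTD1, a circle made from PCMTD1 RNA. Scrambled cells received gapmers of scrambled sequence, and RNA was taken from either group after 48 hours. Gapmers are short antisense oligonucleotides that let RNase H cut the RNA they pair with. The protocols name gapmers, whereas the sample descriptions say siRNA, and gapmer is used here. Each group has 3 biological replicates of 3 technical libraries, and all cells are of 1 line. The labels do not say whether the replicates came from separate cultures, so the spread between them may be technical.

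IGF1 is a secreted peptide that binds the tyrosine kinase receptor IGF1R on the cell surface, and the closely related insulin receptor, INSR, binds insulin and, more weakly, the IGFs. The activated receptors phosphorylate the docking proteins IRS1 and IRS2, which recruit PI3-kinase and so lead to AKT, while the adaptor GRB2 leads to RAS and ERK. IGF binding proteins hold IGFs outside the cell. IGFBP4 mostly limits the access of IGFs to their receptor until the protease PAPP-A cleaves it. In chronic myeloid leukemia cells the same downstream branches are driven by the BCR-ABL1 kinase itself.

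Depth ran from 19118533 to 29432699 counts over the 18 libraries and from 63851576 to 76087774 over the 6 sums of technical libraries. The host gene of the target, PCMTD1, averaged 12.3 ± 0.515 CPM (counts scaled to library size) in knockdown cells and 20.6 ± 1.13 CPM in scrambled cells (SD, n = 3 summed replicates each), a count that adds linear and circular RNA. The labels call the cells lymphoblasts. The 10 erythroid and megakaryocyte markers of K562, such as GATA1 and the fetal globins, summed to between 13000 and 13800 CPM in knockdown samples and between 12400 and 12700 CPM in scrambled samples. That sum is mostly globin. By the edgeR rule given below 5 of the 10 were raised and 1, TAL1, was lowered (log2 fold change -0.13). Of all tested genes 11.1% were raised and 7.49% lowered. ITGA2B, a platelet integrin gene, had 9.08 ± 0.352 CPM in knockdown cells and 4.51 ± 0.0798 CPM in scrambled cells (log2 fold change 1.01, edgeR adjusted p = 2.2e-10). The 5 B cell markers summed to 0.973 to 1.10 CPM in knockdown samples and 0.516 to 0.61 CPM in scrambled samples, with MS4A1 at 0 throughout. The 5 T cell markers summed to 6.78 to 7.04 CPM in knockdown samples and 4.69 to 5.27 CPM in scrambled samples, almost all of it CD3D. The 5 monocyte and granulocyte markers summed to 46.0 to 47.1 CPM in knockdown samples and 36.4 to 38.3 CPM in scrambled samples, almost all of it LYZ, which was raised (log2 fold change 0.34, edgeR adjusted p = 5.05e-07). The 5 stroma markers summed to 2.59 to 3.23 CPM in knockdown samples and 2.55 to 3.29 CPM in scrambled samples, and the 4 epithelium markers to 45.6 to 49.0 CPM in knockdown samples and 45.4 to 47.2 CPM in scrambled samples, almost all of it EPCAM. The part of these markers in the results below was not tested. In knockdown libraries 3_2 and 3_3 the 10% of genes with the highest transcript GC content lay at a median of -0.134 and -0.157 (log2) from the knockdown mean, and in the other 16 libraries at between -0.054 and 0.071.

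The windows around the transcription starts of IGF1, IGFBP4 and INSR, 3 of the 4 members with separated replicate values, are printed as examples. They come from RefSeq on GRCh38.p14, run from 250 bases before to 50 bases after a start, and are written 5′ to 3′ on the gene's strand. Capitals mark matches on either strand to the GC box GGGCGG, the TATA box TATAAA, the FOXO core TGTTTAC, the GATA motif AGATAA and the STAT palindrome TTCNNNGAA. Overlapping GC boxes run together.
IGF1, first start, minus strand, chr12:102481698-102481997: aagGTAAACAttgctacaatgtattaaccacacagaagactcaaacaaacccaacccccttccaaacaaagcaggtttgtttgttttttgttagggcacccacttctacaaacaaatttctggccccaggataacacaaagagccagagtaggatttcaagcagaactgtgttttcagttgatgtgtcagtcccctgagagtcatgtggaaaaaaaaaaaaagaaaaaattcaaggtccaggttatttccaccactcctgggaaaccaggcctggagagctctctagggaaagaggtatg
IGF1, second start, minus strand, chr12:102478501-102478800: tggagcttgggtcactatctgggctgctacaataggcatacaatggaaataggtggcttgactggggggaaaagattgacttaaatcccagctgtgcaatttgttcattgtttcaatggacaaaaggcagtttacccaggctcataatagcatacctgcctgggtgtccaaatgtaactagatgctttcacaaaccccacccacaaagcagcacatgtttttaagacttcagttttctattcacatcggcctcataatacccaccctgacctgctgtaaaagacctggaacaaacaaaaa
IGFBP4, plus strand, chr17:40443200-40443499: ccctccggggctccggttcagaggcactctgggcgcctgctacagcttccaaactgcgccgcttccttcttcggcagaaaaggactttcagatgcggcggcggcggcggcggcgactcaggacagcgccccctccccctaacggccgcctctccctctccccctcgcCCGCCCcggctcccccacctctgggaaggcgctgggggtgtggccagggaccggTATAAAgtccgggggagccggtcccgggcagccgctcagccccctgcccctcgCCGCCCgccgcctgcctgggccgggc
INSR, minus strand, chr19:7294365-7294664: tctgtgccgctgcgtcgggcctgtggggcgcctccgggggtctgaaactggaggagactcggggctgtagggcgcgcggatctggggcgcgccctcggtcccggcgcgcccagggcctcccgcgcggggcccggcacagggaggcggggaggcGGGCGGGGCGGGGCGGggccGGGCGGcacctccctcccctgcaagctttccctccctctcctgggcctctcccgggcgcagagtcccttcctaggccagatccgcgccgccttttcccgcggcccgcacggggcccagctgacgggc

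The 2 IGF1 windows were AT-rich, with a GC content of 42.3% and 43.7%, against a median of 58.7% over 35116 promoters of the same length. Neither held a GC box, which 45.0% of all promoters held, and the first held 1 FOXO core, at its upstream end, which 3.42% of all promoters held. The IGFBP4 window had a GC content of 74.0%, with 2 GC boxes and a TATA box that starts 29 bases before the start site (TATA boxes were in 11.5% of all promoters). The INSR window had a GC content of 78.3% and 4 GC boxes, 3 of them overlapping. Windows not printed were GC-rich as well for IGF1R (79.7%, 2 GC boxes), IRS1 (79.3%, 4) and IRS2 (75.7%, 5). The IGFBP2 windows had 55.3%, 70.0% and 56.7%. A link between the GC content of a window and the direction of a gene's difference was not tested. No match to the GATA motif (in 10.3% of all promoters) or the STAT palindrome (in 7.66%) was found in the 4 printed windows. A match is a description of the letters, and binding was not measured here.

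IGF1, the ligand, spans 102395874 to 102481744 on chromosome 12 (GRCh38, GENCODE 29), minus strand. Its level was 24.1, 23.7 and 24.9 CPM in the 3 knockdown samples, against 37.2, 38.0 and 38.1 CPM in the 3 scrambled samples. Every knockdown sample lay below every scrambled sample. In bulk RNA, fewer cells that express a gene and less of its RNA per cell cannot be told apart. Single libraries were separate as well and ran from 21.3 to 26.2 CPM with a median of 24.3 CPM in knockdown cells, and from 36.1 to 39.0 CPM with a median of 37.8 CPM in scrambled cells. The log2 fold change, knockdown over scrambled, was -0.64 (SE 0.038), so the level fell by 35.8%. Among 10480 genes averaging at least 5 CPM, IGF1 ranked 4 by size of fall. These values rest on 4819 counts in knockdown and 8050 counts in scrambled libraries. The noncoding genes HELLPAR and LINC02456 overlap IGF1 on the opposite strand in the annotation. Neither is a row of the table, and because the strand setting of the counting is not given in the sources used here, reads of theirs could be in the IGF1 count.

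IGFBP4, on the plus strand of chromosome 17 from 40443461 to 40457731, encodes the secreted binding protein that limits IGF access to the receptor, and it differed in the other direction. It had 111 CPM, 109 CPM and 97.8 CPM in knockdown samples, against 67.1, 65.7 and 69.4 CPM in scrambled samples. The lowest knockdown library, at 88.2 CPM, lay above the highest scrambled library, at 70.5 CPM. The log2 fold change was 0.65 (SE 0.040), a 1.57-fold higher level, and IGFBP4 ranked 18 by size of rise among the 10480 genes. The 2 lowest knockdown values, 94.4 and 88.2 CPM, came from libraries 3_2 and 3_3, in which GC-rich genes as a whole read low. IGFBP4 transcripts have a mean GC content of 62.5%, higher than in 91.0% of the tested genes, and the part of GC content in these 2 values was not tested. The log2 fold change was 0.71 without those libraries and 0.62 with a GC correction.

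IGFBP2, which encodes a related secreted binding protein and is on chromosome 2 (216632828 to 216664436), was close to the lower limit of what these libraries can count. The 9 knockdown libraries held 44 counts of it in all and the 9 scrambled libraries 56. The level was 0.286, 0.188 and 0.185 CPM in knockdown samples, against 0.212, 0.269 and 0.312 CPM in scrambled samples, and the groups overlapped. The 95% exact Poisson interval of the pooled level was 0.161 to 0.298 CPM in knockdown cells and 0.197 to 0.339 CPM in scrambled cells, covering counting error only. The log2 fold change was -0.25 (SE 0.32), with a 95% interval from -0.92 to 0.42, so a difference in IGFBP2 was not detectable at this depth.

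**Figure D1:**
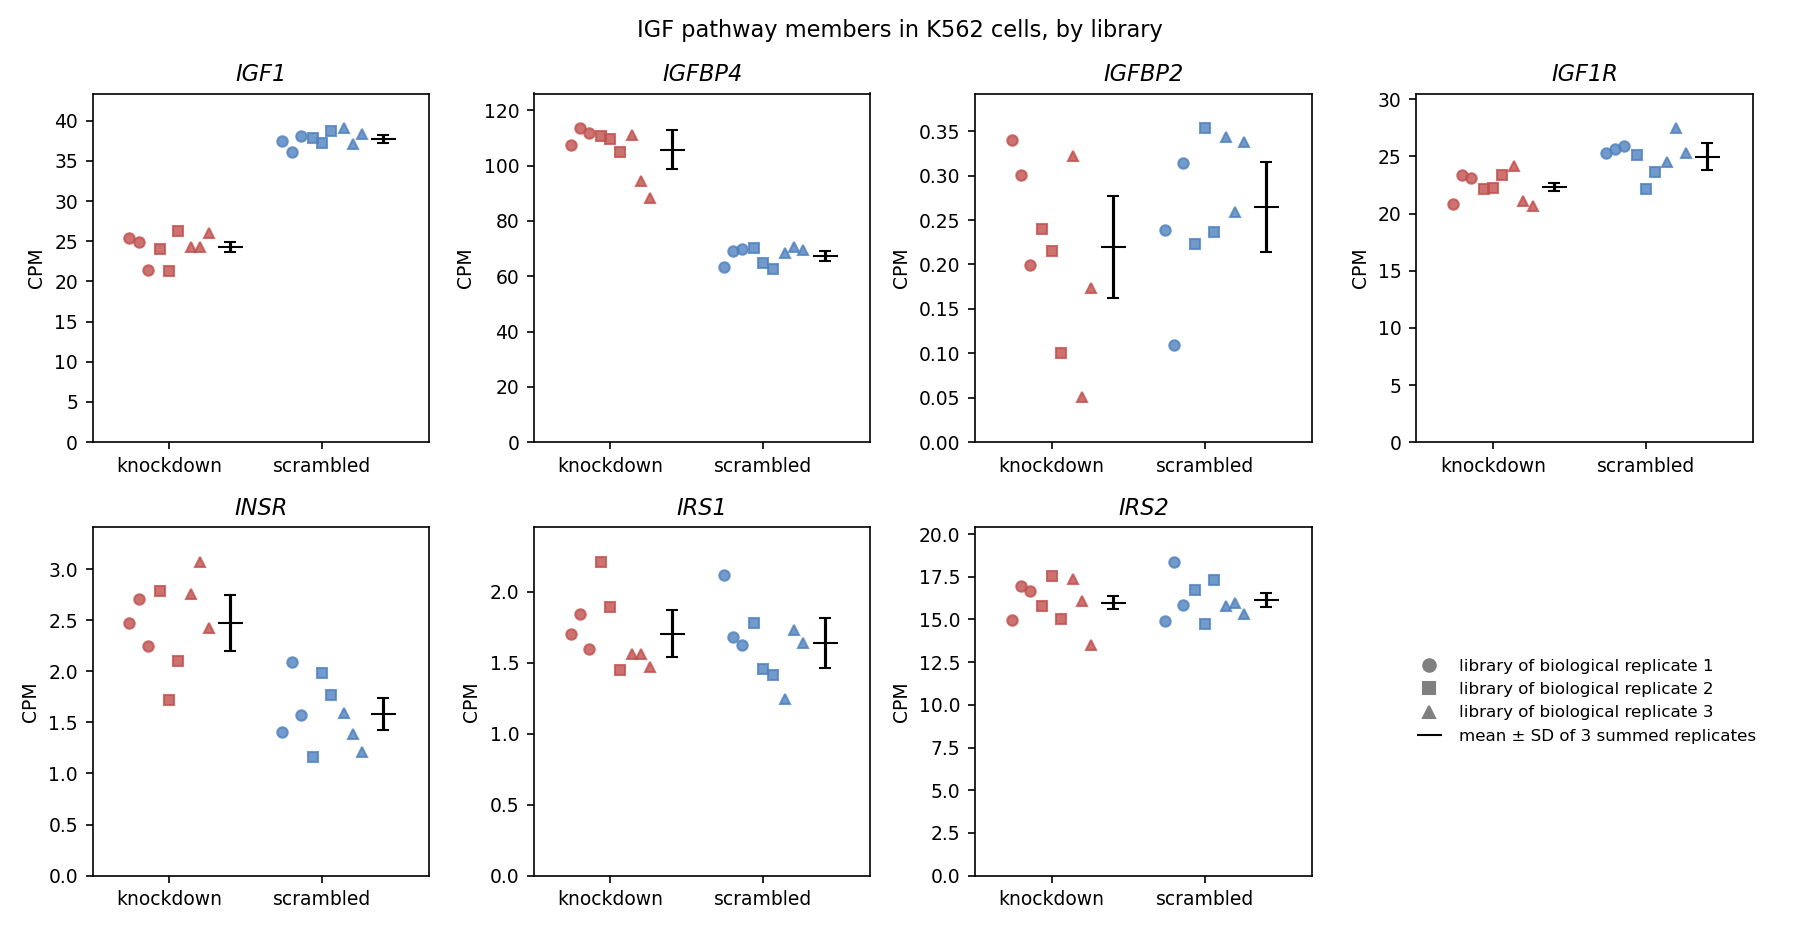
Level in CPM of each of the 7 genes in 18 libraries, knockdown on the left and scrambled on the right of each panel. Symbols give the biological replicate and the bar the mean ± SD of the 3 summed replicates. The 9 knockdown libraries lie below all scrambled libraries for IGF1 and above them for IGFBP4, and the groups overlap for the other 5 genes.

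Because both genes are counted in the same library, the ratio of their reads does not depend on the scaling between libraries. IGFBP4 gave 4.61, 4.58 and 3.92 reads per IGF1 read in knockdown samples, against 1.80, 1.73 and 1.82 in scrambled samples. The means were 4.37 ± 0.389 in knockdown cells and 1.79 ± 0.0472 in scrambled cells (SD, n = 3 each). Single libraries ran from 3.38 to 5.21 in knockdown cells and from 1.62 to 1.92 in scrambled cells, with no overlap. The libraries of both genes were already separate, in opposite directions, so this lack of overlap adds no evidence beyond their own values. A read ratio also holds the difference in transcript length and shows unequal levels, not which gene moved. Nor is it free of base composition, since 35.4% of tested genes have a lower transcript GC content than IGF1 and 91.0% a lower one than IGFBP4. In knockdown libraries 3_2 and 3_3, where GC-rich genes read low, the ratio was 3.88 and 3.38. The part of GC content in these ratios was not tested.

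**Figure D2:**
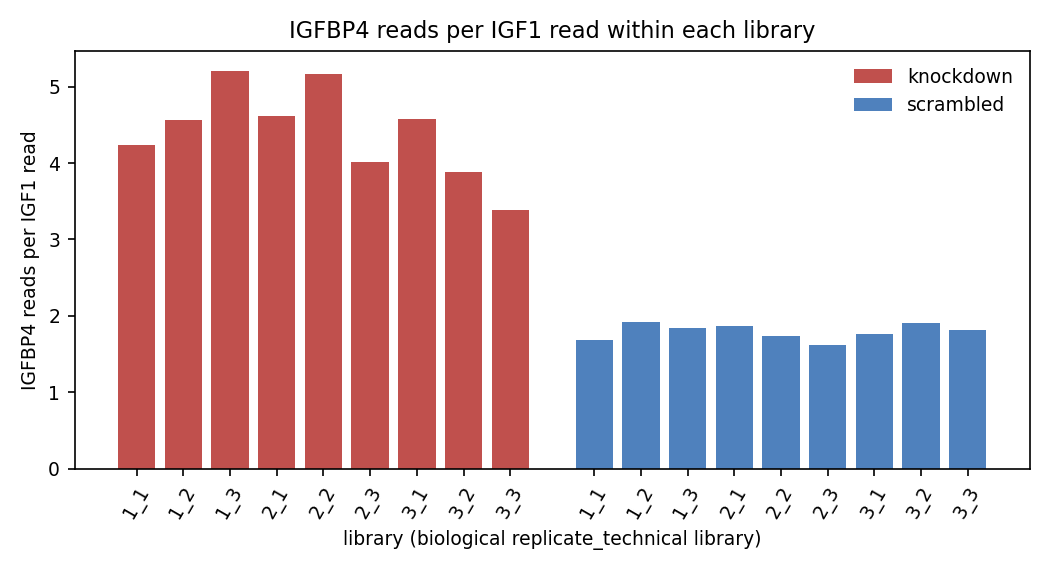
IGFBP4 reads per IGF1 read (bar height, no unit) in each library, named by biological replicate and technical library, knockdown at left and scrambled at right. The lowest knockdown bar, 3.38 in library 3_3, is above the highest scrambled bar, 1.92.

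The receptor genes differed in opposite directions. IGF1R, on the plus strand of chromosome 15 from 98648539 to 98964530, encodes the tyrosine kinase receptor of IGF1. It had 22.4, 22.6 and 22.0 CPM in knockdown samples, against 25.6, 23.6 and 25.7 CPM in scrambled samples. The summed samples did not overlap, while single libraries did, with 20.7 to 24.1 CPM in knockdown cells and 22.2 to 27.5 CPM in scrambled cells. The log2 fold change was -0.16 (SE 0.043), with a 95% interval from -0.25 to -0.07. It was -0.14 without scrambled replicate 1 and also without scrambled replicate 3, and in both cases the gene lost its call in the test described below. The antisense genes that overlap IGF1R in the annotation are not rows of the table.

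INSR spans 7112255 to 7294034 on chromosome 19, minus strand, and encodes the insulin receptor. The RefSeq start used for its window lies upstream of this interval. It was a low gene, with 2.50, 2.19 and 2.73 CPM in knockdown samples, against 1.69, 1.64 and 1.40 CPM in scrambled samples. The summed samples were separate, but single libraries overlapped, with 1.72 to 3.07 CPM in knockdown cells and 1.16 to 2.09 CPM in scrambled cells. The log2 fold change was 0.64 (SE 0.12), with a 95% interval from 0.40 to 0.89. INSR rested on 492 counts in knockdown and 338 counts in scrambled libraries, and its interval is wider than that of IGF1 or IGFBP4 at a log2 fold change of like size.

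The docking protein genes showed no such separation. IRS2, on chromosome 13, had 16.2, 16.2 and 15.6 CPM in knockdown samples, against 16.4, 16.3 and 15.7 CPM in scrambled samples. The groups overlapped, and the 95% interval of its log2 fold change of -0.01 ran from -0.11 to 0.08. IRS1, on chromosome 2, had 1.73, 1.86 and 1.53 CPM in knockdown samples, against 1.84, 1.55 and 1.53 CPM in scrambled samples. Its log2 fold change was 0.05 (SE 0.13), with a wider interval from -0.21 to 0.32 and 339 counts in knockdown and 351 in scrambled libraries.

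**Figure D3:**
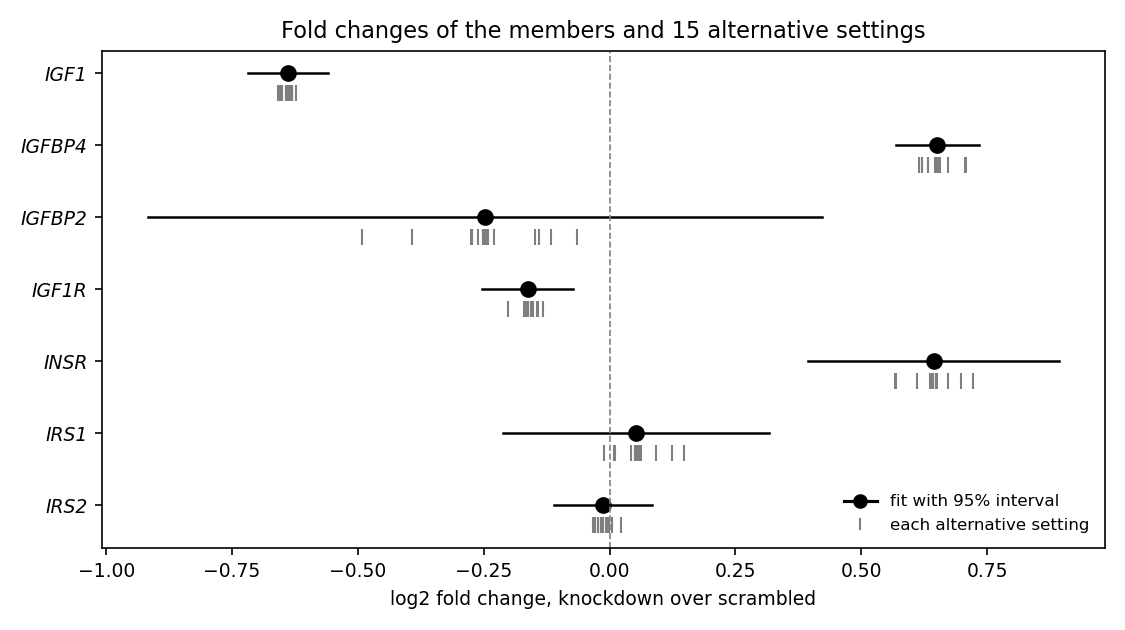
Log2 fold change, knockdown over scrambled, of each gene (horizontal axis) with its 95% interval, and below each the values under 15 alternative settings. IGF1 stays between -0.66 and -0.62, IGFBP4 between 0.61 and 0.71 and INSR between 0.57 and 0.72.

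A gene was called where edgeR's quasi-likelihood test gave p below 0.05 after Benjamini-Hochberg adjustment over 15678 genes. All 7 members entered the test, 2 met the rule as higher (IGFBP4 and INSR), 2 as lower (IGF1 and IGF1R), and 3 did not meet it. Of all tested genes 18.6% met it, 11.1% as higher and 7.49% as lower. The 3 knockdown and 3 scrambled samples did not overlap for 4 members and for 34.6% of all tested genes, and the 9 and 9 libraries did not overlap for 2 members and for 5.12% of all tested genes. Since the members were chosen from this comparison, nothing is read from these counts. The median log2 fold change was -0.01 over the members and 0.00 over all tested genes.

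Levels between genes were compared per kilobase of annotated exon. IGFBP4 was highest, at 48.1 ± 3.24 CPM per kb in knockdown cells and 30.6 ± 0.841 CPM per kb in scrambled cells (SD, n = 3 each). IGF1 followed at 2.98 ± 0.0767 CPM per kb in knockdown cells and 4.65 ± 0.0587 CPM per kb in scrambled cells. IRS2 had 1.96 ± 0.0448 and IGF1R 1.60 ± 0.0223 CPM per kb in knockdown cells, against 1.98 ± 0.0496 for IRS2 and 1.79 ± 0.0845 for IGF1R in scrambled cells. INSR and IRS1 did not differ beyond their spread in scrambled cells, at 0.151 ± 0.0152 and 0.165 ± 0.0175 CPM per kb. In knockdown cells INSR, at 0.237 ± 0.0262 CPM per kb, lay above IRS1, at 0.171 ± 0.0167. IGFBP2 was lowest, at 0.0460 ± 0.012 CPM per kb in knockdown cells and 0.0555 ± 0.0106 in scrambled cells. The exon length is the union over all annotated transcripts, so a gene that uses a short isoform reads too low on this scale.

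The other genes of the pathway were taken from lists by role, 108 genes in all, of which 95 passed the filter on low counts. Of these, 10 rose and 13 fell by the same edgeR rule, or 24.2%, against 18.6% of all tested genes, and their median log2 fold change was 0.00, as over all genes. The lists were chosen with earlier results known, and nothing particular to the pathway is read from this share. Without knockdown libraries 3_2 and 3_3, 17 rose and 23 fell, or 42.1%, against 32.0% of all genes. With GC correction 13 rose and 27 fell, also 42.1%, against 31.6% of all genes. Without knockdown replicate 3, 15 rose and 22 fell, or 38.5%, against 29.8% of all genes. Without scrambled replicate 1, 6 rose and 10 fell, or 16.8%, against 11.0% of all genes. Without scrambled replicate 2, 9 rose and 7 fell, also 16.8%, against 11.4%, and without scrambled replicate 3, 7 rose and 7 fell, or 14.6%, against 12.4%.

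Of the remaining ligands and receptors, IGF2 had 1 count in all knockdown and 1 in all scrambled libraries, and INS had 0 in knockdown and 1 in scrambled libraries. IGF1 was therefore the one ligand of the 3 counted at more than trace level. IGF2R, the receptor that clears IGF2 and sorts lysosomal enzymes, had 476 ± 11.3 CPM in knockdown cells and 482 ± 2.63 CPM in scrambled cells, with a log2 fold change of -0.02 (SE 0.024), and was not called. INSRR, a receptor of the same family, was at 0.923 ± 0.171 CPM in knockdown cells and 0.854 ± 0.0639 CPM in scrambled cells and was not called. DESeq2 called 0 of these 2 receptors too, and 0 had an unadjusted p below 0.05 in edgeR.

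Of 12 other binding proteins and their regulators, 6 were tested and 0 were called by edgeR or by DESeq2. The edgeR rule called 18.6% of all tested genes. In this list 2 had an unadjusted p below 0.05 in edgeR, PAPPA and STC2. IGFBP5 and IGFBP6 lay under 1 CPM in both groups, and IGFBP1 and IGFBP3 had 4 counts or fewer in either group. IGFBP7 had 0 counts in both groups, which allows up to 0.0151 CPM in knockdown cells and 0.0140 CPM in scrambled cells. PAPPA, the protease that cleaves IGFBP4, had 8.94 ± 0.96 CPM in knockdown cells and 10.1 ± 0.436 CPM in scrambled cells, with a log2 fold change of -0.17 (SE 0.068, edgeR adjusted p = 0.0802). STC2, an inhibitor of PAPP-A, had 15.2 ± 0.682 CPM in knockdown cells and 16.7 ± 0.497 CPM in scrambled cells (log2 fold change -0.13, edgeR adjusted p = 0.0643), and it met the edgeR rule, as lower, with GC correction, with the replicate number as a block, and when libraries were summed by the second number.

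The growth hormone receptor gene GHR, which drives IGF1 in the liver, had 9 counts in knockdown and 14 in scrambled libraries and was not tested. JAK2, the kinase that this receptor uses, fell, with 57.6 ± 1.94 CPM in knockdown cells and 68.6 ± 1.5 CPM in scrambled cells and a log2 fold change of -0.25 (SE 0.034, edgeR adjusted p = 1.66e-05). Of the STAT factors that carry the signal to IGF1, STAT5A was at 0.08 (edgeR adjusted p = 0.0514) and STAT5B at -0.05 (edgeR adjusted p = 0.233) on the log2 fold change scale.

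Of 13 tested adaptors that bind the activated receptors, 2 fell and 0 rose in edgeR, or 15.4% against 18.6% of all tested genes. At an unadjusted p below 0.05 in edgeR 4 were lower and 0 higher, and DESeq2 called 3 as lowered and 0 as raised. GRB10, an adaptor that restrains IGF1R and INSR, had 170 ± 1.93 CPM in knockdown cells and 194 ± 1.58 CPM in scrambled cells, a log2 fold change of -0.19 (edgeR adjusted p = 2.49e-05). CRKL, also a prominent substrate of BCR-ABL1, had a log2 fold change of -0.07 (edgeR adjusted p = 0.0385), a call lost with upper quartile scaling, with no count filter, and without any single replicate other than knockdown replicate 3.

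Of 15 tested genes that damp the pathway, 2 rose, 3 fell and 10 were not called, so that 33.3% were called, against 18.6% of all tested genes (11.1% raised and 7.49% lowered). PTPRF, a receptor phosphatase that acts on INSR, fell by 0.46 on the log2 scale, with 8.24 ± 0.801 CPM in knockdown cells and 11.3 ± 0.513 CPM in scrambled cells. SOCS1, a feedback inhibitor of JAK kinases, fell by 0.36 and TRIB3, a pseudokinase gene that binds AKT and is induced by ATF4, by 0.26. INPP5D, the SHIP1 phosphatase that acts on PI3-kinase products, rose, with a log2 fold change of 0.25. The edgeR adjusted p of these 4 genes was 0.0148 or less, and the call of INPP5D was lost without knockdown replicate 1, scrambled replicate 2 or scrambled replicate 3. SOCS3, of the same family as SOCS1, rose, with a log2 fold change of 0.158 (edgeR adjusted p = 0.015).

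On the branch from PI3-kinase to AKT, 3 of 21 tested genes rose and 2 fell, or 23.8%, near the 18.6% of all tested genes. PIK3CD, the catalytic subunit prominent in blood cells, rose to 42.0 ± 1.73 CPM in knockdown cells, against 36.7 ± 0.215 CPM in scrambled cells (log2 fold change 0.20). TBC1D1, a Rab regulator phosphorylated by AKT, was at 0.27 and BAD, a death-promoting AKT substrate, at 0.23, while the regulatory subunit gene PIK3R3 was at -0.14. The edgeR adjusted p of these 4 genes ran from 0.000674 to 0.0261, the call of BAD was lost without scrambled replicate 1, and that of PIK3R3 without knockdown replicate 2, scrambled replicate 2 or scrambled replicate 3. On the branch from RAS to ERK, 2 of 15 rose and 0 fell in edgeR, or 13.3%, against 18.6% of all tested genes. In that list 5 were higher and 2 lower at an unadjusted p below 0.05 in edgeR, and DESeq2 called 2 as raised and 1 as lowered. MAPK3, which encodes ERK1, had 25.4 ± 0.506 CPM in knockdown cells and 21.3 ± 0.471 CPM in scrambled cells (log2 fold change 0.25). RPS6KA1, a kinase activated by ERK, also had a log2 fold change of 0.25, with edgeR adjusted p of 0.000136 for MAPK3 and 3.82e-05 for RPS6KA1.

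FOXO transcription factors are held out of the nucleus by AKT and switch on genes when insulin-type signalling is low, IRS2 and INSR among them in several tissues. Of 16 tested FOXO factors and targets, 3 rose and 4 fell, or 43.8%, against 18.6% of all tested genes (11.1% raised and 7.49% lowered), with a median log2 fold change of 0.02. Like the others, this list was chosen with earlier results known, and the share is given as a description. PINK1, a mitochondrial quality kinase, was at 0.31 and KLF15, a metabolic transcription factor, at 0.34, while FOXO3 itself was at -0.15 and BCL2L11, which encodes the death-promoting protein BIM, also at -0.15. The edgeR adjusted p of these 4 ran from 0.000257 to 0.009, with the call of KLF15 lost without scrambled replicate 1 and that of BCL2L11 without scrambled replicate 3. The other called genes of the list were FOXO4, raised at 0.157, and BCL6 at -0.223 and TXNIP at -0.085, both lowered. Their edgeR adjusted p was 0.0112, 0.0118 and 0.0159. Of 5 tested genes that bind IGF messenger RNAs or regulate them, 1 fell. IGF2BP1, which binds the IGF2 messenger RNA among others, had 671 ± 5.74 CPM in knockdown cells and 705 ± 4.47 CPM in scrambled cells (log2 fold change -0.07, edgeR adjusted p = 0.0288), a call lost without any single replicate other than knockdown replicate 3.

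**Figure D4:**
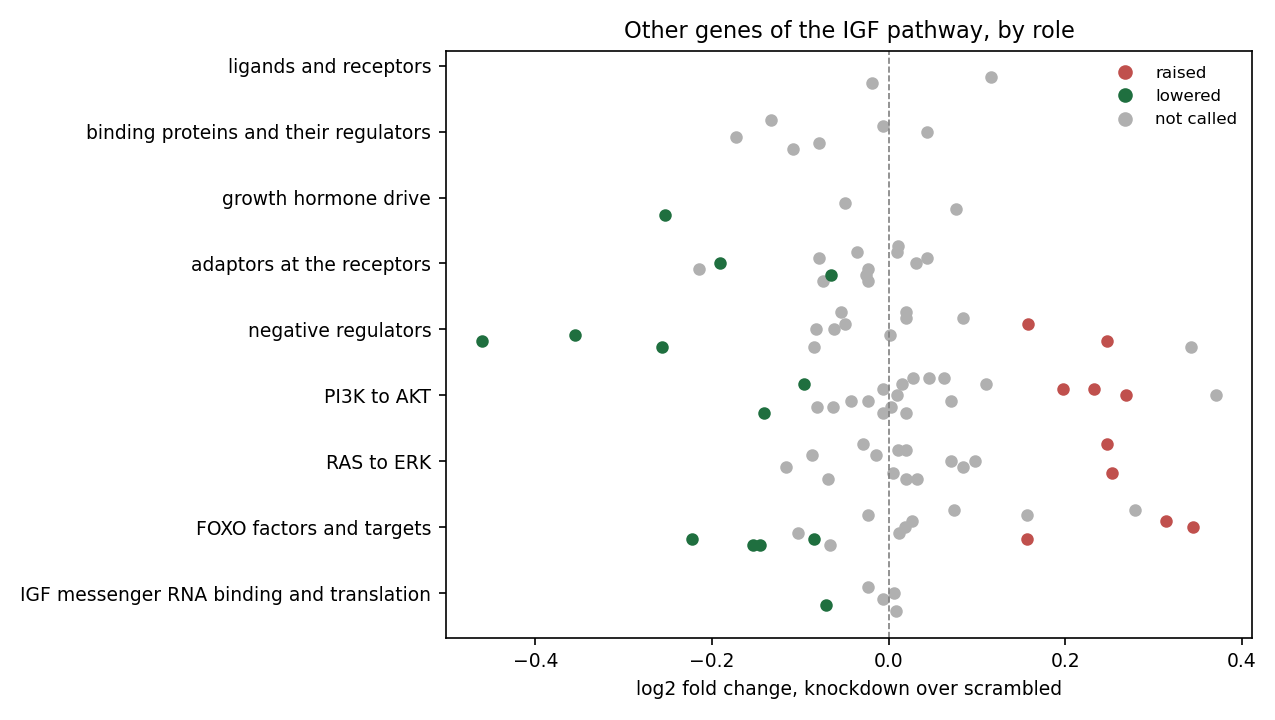
Log2 fold change, knockdown over scrambled (horizontal axis), of the tested pathway genes other than the 7 members, by role; the vertical offset within a row only separates points. Raised and lowered genes by the edgeR rule are coloured, and all of them lie between -0.46 and 0.34.

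To see which genes varied with IGF1 beyond the group difference, the deviation of each library from its group mean of log2 CPM was compared across 18 libraries with that of 10476 other genes of at least 5 CPM. The highest Pearson correlations with IGF1 were those of DUSP10 (0.783), RMI1 (0.752), CREBRF (0.750), MIS12 (0.746) and RNASEH2B (0.737). Of these 5 genes, RNASEH2B was called, at a log2 fold change of 0.18, the direction opposite to IGF1, and the other 4 lay between -0.04 and 0.02. For IRS2 the highest were ENTREP3 (0.824), PHF12 (0.818), ETV4 (0.802), PDXP (0.793) and RPL28 (0.792). Of these, ENTREP3 and ETV4 were called, as higher, at log2 fold changes of 0.204 and 0.345. The others lay between -0.065 and 0.063 and were not called. Libraries of 1 sample share their RNA, all genes of a library share its depth and base composition, and these are the extremes of many comparisons, so the values are descriptive.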

How the data were processed

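Total RNA of K562 cells was made into directional libraries after ribosomal RNA depletion, per the labels' protocols. Trim Galore, STAR, featureCounts and the build GRCh38 are named in the submitters' processing notes, with versions, annotation and strandedness not given in the sources used here. Deposited values are the authors' raw whole-number counts by gene symbol in 1 column per technical library, and no 2 columns were identical.

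The 3 technical libraries of each biological replicate (first number of the label) were summed. After filterByExpr, 15678 genes were fitted with TMM factors and robust quasi-likelihood in edgeR 4.0.16 under R 4.3.3, and p-values were adjusted by Benjamini-Hochberg. The procedure was tested on simulated data. CPM uses TMM-scaled library sizes, errors are SDs over 3 sums, and log2 fold changes and SEs come from the fit. Per-library log2 CPM used a prior count of 2.

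The members and gene lists were chosen with earlier results of these data known. Named genes are the 7 members, PCMTD1, up to 4 called genes per list by smallest p (or the tested gene with the smallest p), and the 5 genes most correlated with IGF1 and with IRS2. Other genes are named by level, as context, as further calls of a list, or as neighbours, and these were picked after their values were seen. Alternatives were DESeq2 1.42.0, other scaling factors, no count filter, the replicate number as a block, summing by the second number, a lowess correction (span 0.3) on GENCODE 29 transcript GC content, leaving out knockdown libraries 3_2 and 3_3 together, and each replicate left out. Promoter windows are from RefSeq (GRCh38.p14), in which all 7 members matched. Figures used matplotlib 3.10.9.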

Additional observations from a re-analysis of the deposited data

How the results depend on the processing

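Over 15 alternatives, IGF1 and IGF1R kept a negative and INSR and IGFBP4 a positive log2 fold change. IGF1, INSR and IGFBP4 met the call rule in all 15 and IGF1R in 13, and IRS1, IRS2 and IGFBP2 met it in none. The alternatives reuse the libraries of the comparison that was known when the members were chosen. They describe how far the values depend on processing and are no independent evidence of a difference. With each replicate left out in turn, the log2 fold change ran from -0.66 to -0.62 for IGF1, from -0.20 to -0.14 for IGF1R, from 0.57 to 0.72 for INSR, from -0.01 to 0.15 for IRS1, from -0.03 to 0.01 for IRS2, from -0.49 to -0.12 for IGFBP2 and from 0.61 to 0.71 for IGFBP4. IRS2 moved to 0.022 when knockdown libraries 3_2 and 3_3 were dropped.

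Counts of calls moved more. Over all genes, 1745 were raised and 1175 lowered, and with replicates left out these ran from 1127 to 2482 and from 623 to 2280. Lowered genes numbered 2389 when libraries were summed by the second number, 2614 after GC correction and 2426 once the same knockdown libraries were dropped. Raised genes made up 59.8% of calls and 47.2% with GC correction. Among the other pathway genes, 16 were raised and 25 lowered when summed by the second number, or 43.2%, against 31.8% of all tested genes. Without knockdown libraries 3_2 and 3_3, 17 were raised and 23 lowered, or 42.1% against 32.0%. With GC correction 27 were lowered, and 42.1% were called in either direction, against 31.6%. With replicates left out the pathway counts ran from 6 to 15 raised and from 7 to 22 lowered. The share called in these fits ran from 14.6% to 38.5%, against 11.0% to 29.8% of all genes. Nothing particular to the pathway is read from these shares. Fits without a replicate have fewer samples, and both counts over all genes fell in them except without knockdown replicate 3. There they rose, to 2482 raised and 2280 lowered. Each sum by the second number holds a library of every biological replicate, so the spread between such sums is not that between biological replicates. The cause of these shifts in the counts was not tested.

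Knockdown and scrambled samples of the same replicate number had correlations of 0.030, 0.011 and 0.011 in their deviations from the group means. Pairs with different numbers lay between -0.041 and 0.027. Whether equal numbers share a batch was not tested. With the replicate number as a block, 2213 genes were raised and 1772 lowered, or 25.4% of all tested genes. Of the other pathway genes 15 were raised and 21 lowered, or 37.9%. With the block and GC correction, 2686 genes and 28 other pathway genes were lowered. Calls in either direction then made up 32.2% of all genes and 44.2% of the other pathway genes. Depth limits IGFBP2 most, and then IRS1 and INSR.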

Other observations

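The genes next to each member on the chromosome, other than IGFBP5, were not part of the comparisons above. The rule, the nearest tested protein-coding gene on either side in GENCODE 29, was set after the data were seen. Beside IGFBP4 on chromosome 17, TNS4, an adhesion adaptor gene 18.1 kb away, had 1.47 ± 0.213 CPM in knockdown cells and 0.531 ± 0.0998 CPM in scrambled cells (SD, n = 3 each), a log2 fold change of 1.46 (edgeR adjusted p = 4.55e-06). On the other side, 25.5 kb away, TOP2A, the mitotic topoisomerase gene, had 559 ± 31.5 CPM in knockdown cells and 540 ± 5.92 CPM in scrambled cells and was not called (edgeR adjusted p = 0.278). IGFBP2 lies 7.67 kb from IGFBP5, and both were under 1 CPM in both groups.

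Of the 14 neighbours, 4 were called, or 28.6%, against 18.6% of all tested genes, and nothing about the loci is read from this count. Besides TNS4, 3 were called. RHBDD1, a rhomboid protease gene 35.8 kb from IRS1, had a log2 fold change of 0.29 (edgeR adjusted p = 4.27e-06). MYO16, 545 kb from IRS2, was at 0.13 (edgeR adjusted p = 0.0416). NT5DC3, on the higher-coordinate side of IGF1 but 1289 kb away, was at -0.18 (edgeR adjusted p = 0.000204). The genes beside INSR, ZNF557 and ARHGEF18, had log2 fold changes of -0.01 and 0.07 and were not called.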
